A study of Homo sapiens with 6 samples.

Results

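The genes of glycolysis and of the hypoxia response were followed in SaOS-2 cells, an osteosarcoma line that lacks functional RB and p53, after induction of the CDK inhibitor p21. Of 42 symbols searched, 41 were found among the 23228 gene names of the deposited table. PKM is listed there under its older symbol PKM2, and this row holds all reads of the gene, so the M1 and M2 splice forms were not separated. All cells carried a tetracycline-inducible p21 vector. The 3 p21 OFF libraries came from untreated cells and the 3 p21 ON libraries from cells given 1 μg/ml doxycycline for 24 h. The study calls its replicates biological, and p-values measure the spread between the 3 libraries of each condition. No cells were analysed that received doxycycline without the vector, so p21 and the drug cannot be told apart. Every value comes from bulk RNA, in which fewer cells with a transcript and less transcript per cell cannot be told apart.

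Glycolysis splits glucose into pyruvate in the cytosol, and lactate dehydrogenase then reduces pyruvate to lactate, which leaves the cell through monocarboxylate transporters. When oxygen is low, the transcription factor HIF escapes hydroxylation by the EGLN enzymes and raises many of these genes together with genes of pH control, mitophagy and collagen hydroxylation. The HIF element has the core ACGTG or GCGTG. Proliferating tumor cells commonly keep glycolysis high with oxygen present.

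The libraries held 12795490 to 21975045 reads on genes. CDKN1A, the gene of p21, had 1187 to 1355 normalized counts in p21 OFF and 40470 to 46739 in p21 ON libraries. p21 OFF replicate 1 stood apart from the other p21 OFF libraries, with a chi-square per gene of 8.5 and 9.26 against them, where the other 4 pairs of replicates gave 2.71 to 3.98 and sampling alone gives about 1. The osteoblast genes RUNX2, ALPL, SP7, COL1A1 and IBSP were expressed, with 95.5 normalized counts as the lowest value of any of them, whereas SPP1 and COL1A2 stayed under 5 and BGLAP was at 0. The summed leukocyte markers were at 6.09 to 10.5 normalized counts. The summed epithelial markers were at 328 to 398 in p21 OFF and 317 to 357 in p21 ON libraries. EPCAM made up most of this sum, with CDH1 at 0 to 3.91 and KRT5 at 21.35 to 31.43. The summed endothelial markers were at 62.8 to 69.1 in p21 OFF and 73.1 to 105 in p21 ON libraries, mostly from VWF, with CDH5 at 0 to 1.26. The part of these markers in the results was not tested.

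Promoter sequence from RefSeq (GRCh38.p14) was found for 36 of the 41 members. It covers the 250 bases before and 50 bases after a single listed start per gene. A gene can have other starts, and the one used need not be the main one. ACGTG or GCGTG stood on either strand in 27 of the 36, or 75%, and in 48.4% of all 27305 promoters of the table. CACGTG, the E box, which holds ACGTG on both strands, stood in 6 of the 36, or 16.7%, and in 7.43% of all promoters. These shares describe letters in a window and not binding. The 250 bases before the start used are shown for 4 members that changed after p21 induction and hold such a match there. LDHA and GAPDH were lower and ENO2 and PFKFB4 higher in p21 ON cells. In the full 300 bases, ACGTG or GCGTG stood in 3 of the 5 lower members, or 60%. It stood in both higher members with sequence, and PFKFB2 had none listed. Members that were not called held it too, as BNIP3 with 2 ACGTG and 4 GCGTG. Capitals mark ACGTG and GCGTG on either strand.
LDHA (chr11:18394313-18394562, plus strand): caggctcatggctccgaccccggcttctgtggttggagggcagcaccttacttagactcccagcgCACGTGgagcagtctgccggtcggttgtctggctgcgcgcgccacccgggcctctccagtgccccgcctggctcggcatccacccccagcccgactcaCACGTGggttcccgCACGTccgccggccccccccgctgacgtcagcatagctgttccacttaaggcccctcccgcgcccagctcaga
GAPDH (chr12:6535014-6535263, plus strand): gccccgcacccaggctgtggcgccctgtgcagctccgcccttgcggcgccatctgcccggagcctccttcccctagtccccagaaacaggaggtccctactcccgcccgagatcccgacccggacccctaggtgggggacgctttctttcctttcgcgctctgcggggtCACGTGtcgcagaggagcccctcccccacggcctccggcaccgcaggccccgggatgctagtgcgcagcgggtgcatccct
ENO2 (chr12:6914330-6914579, plus strand): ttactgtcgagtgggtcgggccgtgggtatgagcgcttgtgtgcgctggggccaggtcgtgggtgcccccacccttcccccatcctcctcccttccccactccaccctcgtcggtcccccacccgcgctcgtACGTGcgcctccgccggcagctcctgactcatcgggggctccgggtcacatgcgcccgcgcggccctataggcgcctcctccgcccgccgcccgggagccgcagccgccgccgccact
PFKFB4 (chr3:48556804-48557053, minus strand): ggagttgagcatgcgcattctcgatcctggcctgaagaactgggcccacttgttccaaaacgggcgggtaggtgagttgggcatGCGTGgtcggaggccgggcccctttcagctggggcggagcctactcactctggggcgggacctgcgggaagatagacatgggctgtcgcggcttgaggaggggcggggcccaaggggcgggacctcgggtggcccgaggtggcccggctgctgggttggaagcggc
The LDHA stretch holds 2 CACGTG boxes, and that of GAPDH holds 1. Whether the start used for GAPDH is its main one was not examined. The windows taken for TPI1 and PGAM1, which were also lower, hold none of these letters in the 300 bases searched. Judged by the shift between GRCh37 and GRCh38 at HK1 and P4HA1, the PGAM1 window lies inside the gene. The sequence before the first start of PGAM1 was thus not examined.

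To ask whether glycolysis and hypoxia-response genes moved with p21, expression was compared by limma on log2(normalized count + 1) across the 13255 genes that averaged 10 or more normalized counts. Fold changes are on this log2 scale, and a gene was called with an adjusted p-value under 0.05. Of the 41 members, 39 passed the filter. The genes ENO2, PFKFB2 and PFKFB4 were higher, and 5 genes, TPI1, GAPDH, PGAM1, PKM2 and LDHA, were lower in p21 ON cells. The 3 higher genes are 7.69% of the tested members, where 10.5% of all tested genes were called higher. The 5 lower genes are 12.8%, where 12.7% of all tested genes were called lower. The members as a set were thus called about as often as other genes. Without adjustment, 3 of the 39 members were higher and 13 lower at p under 0.05, against 17.8% and 19.1% of all genes. The median log2 fold change was -0.07 over the tested members and 0.00565 over all genes. The p21 ON libraries lay wholly below the p21 OFF libraries for 14 of the 39 members, or 35.9%, against 21.3% of all genes, and wholly above for 4, or 10.3%, against 19.1%. No call of a member rested on a large change, as all 39 log2 fold changes were between -0.28 and 0.41.

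**Figure D1:**
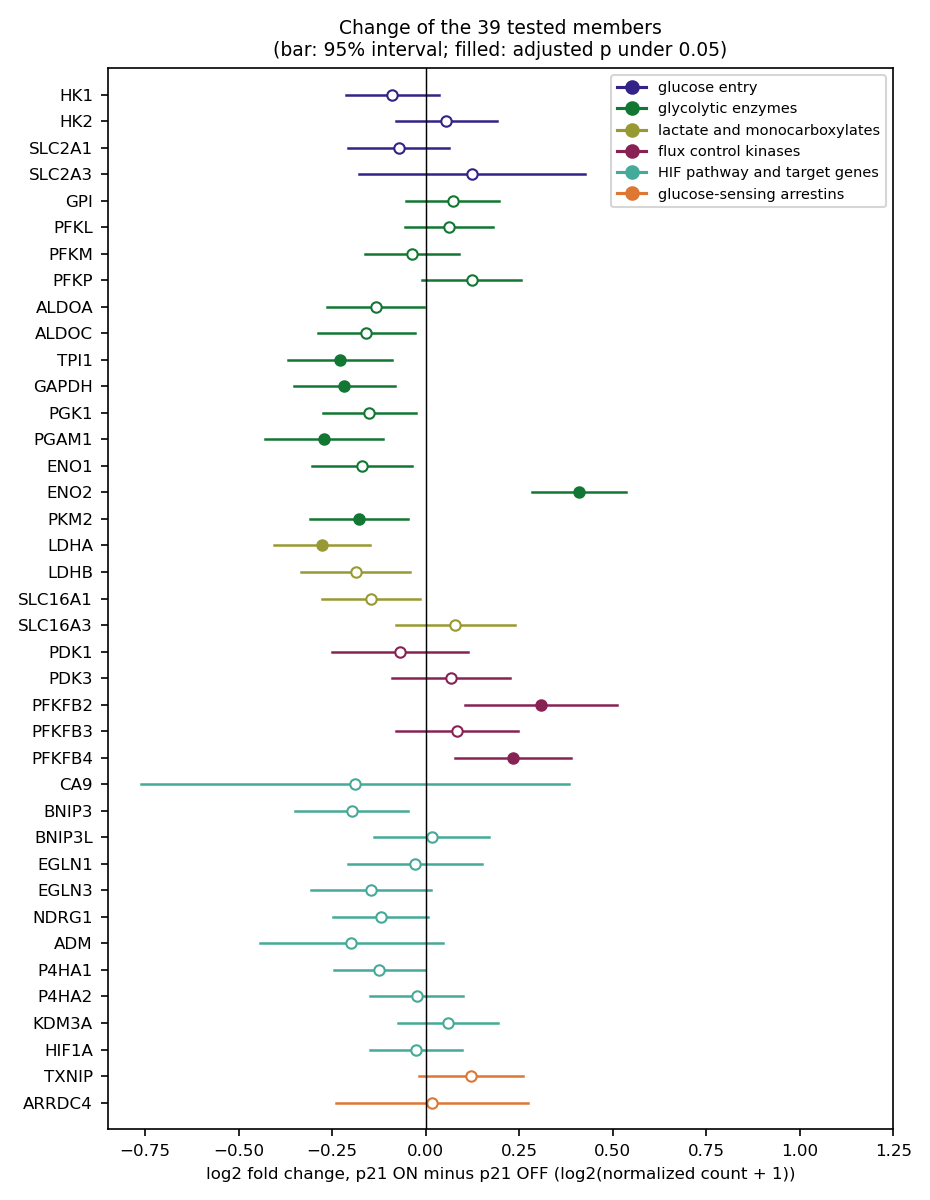
Log2 fold change of the 39 tested members between p21 ON and p21 OFF cells, by role. Points are limma estimates, bars their 95% intervals, and filled points passed an adjusted p-value of 0.05. ENO2 lies farthest to the right at 0.41 and LDHA farthest to the left at -0.28, with HIF1A near 0.

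None of the 4 genes of glucose entry was called. HK1, the widely expressed hexokinase that traps glucose in the cell, had 4023, 4193 and 4385 normalized counts in p21 OFF and 3817, 4077 and 3948 in p21 ON libraries, a log2 fold change of -0.09 (95% interval -0.21 to 0.03). HK2, the inducible hexokinase, had 1469, 1625 and 1665 normalized counts in p21 OFF and 1653, 1646 and 1638 in p21 ON libraries, a log2 fold change of 0.06 (95% interval -0.08 to 0.19). Groups overlapped for both genes, and p21 OFF replicate 1 was the lowest HK2 library. SLC2A1, the main glucose transporter of proliferating cells, had 2109, 2111 and 2388 normalized counts in p21 OFF and 2112, 2019 and 2145 in p21 ON libraries, a log2 fold change of -0.07. SLC2A3, a high-affinity glucose transporter, was weakly expressed, with 71.6, 73.4 and 76.9 normalized counts in p21 OFF and 87.3, 86.5 and 69.4 in p21 ON libraries. All 4 genes had overlapping groups.

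GPI, PFKL, PFKM and PFKP catalyze the early steps up to the phosphofructokinase reaction, which commits the sugar to glycolysis. None was called. GPI, the isomerase, had 14187 to 15439 normalized counts in p21 OFF and 15205 to 15931 in p21 ON libraries, a log2 fold change of 0.07. PFKL, the liver isoform of phosphofructokinase, had 4409, 4334 and 4518 normalized counts in p21 OFF and 4573, 4505 and 4773 in p21 ON libraries, a log2 fold change of 0.06. PFKM, the muscle isoform, had 1679, 1697 and 1696 normalized counts in p21 OFF and 1596, 1692 and 1659 in p21 ON libraries, a log2 fold change of -0.04 that turned positive under scaling by library size alone. These 3 genes had overlapping groups. PFKP, the platelet isoform, had 2512, 2835 and 2812 normalized counts in p21 OFF and 2878, 2929 and 3067 in p21 ON libraries, without overlap and with p21 OFF replicate 1 the lowest (log2 fold change 0.12, adjusted p = 0.166 from limma).

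The stretch from aldolase to lactate dehydrogenase held most of the calls. Of its 11 members, 5 were called lower, 1 was called higher and 10 had a negative log2 fold change, with a median of -0.18. Of all tested genes 12.7% were called lower and 48.9% were negative. The split of the pathway at aldolase was made after the values were seen, so these counts are a description. GAPDH and ENO1 were the most abundant members, with 33750 and 28860 normalized counts per kb of canonical transcript in p21 OFF cells. ALDOA and PKM2 followed at 13870 and 13210 per kb.

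On GRCh37 the called genes lie at chr12:6976283-6980112 (TPI1), chr12:6643678-6647540 (GAPDH), chr10:99185948-99193201 (PGAM1), chr15:72491370-72524160 (PKM2), chr11:18416107-18429972 (LDHA), chr12:7022909-7032861 (ENO2), chr1:207207711-207254369 (PFKFB2) and chr3:48555117-48599448 (PFKFB4). GAPDH, TPI1 and ENO2 are close to each other on chromosome 12.

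TPI1, which interconverts the triose phosphates, had 5806, 4941 and 5081 normalized counts in p21 OFF and 4392, 4680 and 4407 in p21 ON libraries. Every p21 ON library lay below every p21 OFF library, and p21 OFF replicate 1 was the highest. The log2 fold change was -0.23 (SE 0.07, adjusted p = 0.0182 from limma) and -0.16 without that library, where TPI1 was still called. GAPDH, the triose phosphate dehydrogenase used widely as a reference gene, had 45748, 42067 and 42295 normalized counts in p21 OFF and 36530, 38557 and 36785 in p21 ON libraries. Its groups did not overlap either, and 17.6% of its exonic length is shared with an antisense transcript. The log2 fold change was -0.22 (SE 0.06, adjusted p = 0.0206 from limma). With a trend on exonic length taken out of each library, GAPDH moved to -0.12 (adjusted p = 0.132) and TPI1 to -0.15 (adjusted p = 0.0595), and neither was called. In that setting limma called 7 members lower, against 5 before. ENO1 (adjusted p = 0.0426), PGK1 (0.0443) and SLC16A1 (0.0453) were among them.

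PGAM1, a phosphoglycerate mutase, had 1716, 1633 and 1391 normalized counts in p21 OFF and 1256, 1304 and 1354 in p21 ON libraries. The groups were separated by a narrow gap between p21 OFF replicate 3 and p21 ON replicate 3. The log2 fold change was -0.27 (SE 0.07, adjusted p = 0.0147 from limma), and with the length trend removed it was -0.18 and still called. PKM2, the row of pyruvate kinase M, had 31180, 30949 and 29221 normalized counts in p21 OFF and 26029, 26788 and 27935 in p21 ON libraries. All p21 ON values were the lower ones. Its log2 fold change of -0.18 (SE 0.06, adjusted p = 0.0456 from limma) lay close to the threshold and was called in 11 of 20 alternative analyses. For each gene the 20 include cuts of the same fit at an adjusted p under 0.01 and a log2 fold change of at least 0.5. PKM2 could pass neither cut.

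LDHA, the lactate dehydrogenase subunit induced by HIF and MYC, fell most among the members. It had 16151, 15159 and 15078 normalized counts in p21 OFF and 12169, 13398 and 12712 in p21 ON libraries, with a wide gap between the groups. The log2 fold change was -0.28 (SE 0.06, adjusted p = 0.00355 from limma). It was between -0.31 and -0.24 with any library left out and was called each time. With the length trend removed it was -0.29. LDHB, the subunit typical of oxidative tissue, had 9471, 8127 and 8412 normalized counts in p21 OFF and 7208, 8237 and 7385 in p21 ON libraries. Its groups overlapped through p21 OFF replicate 2, and the log2 fold change was -0.19 (adjusted p = 0.0581 from limma). LDHB was called lower under TMM scaling (0.0469), without p21 OFF replicate 2 (0.0411) and without p21 ON replicate 2 (0.0336). Its log2 fold change was -0.12 when p21 OFF replicate 1 was left out (0.106). SLC16A1, a lactate and pyruvate transporter, had 2434, 2404 and 2301 normalized counts in p21 OFF and 2143, 2282 and 2030 in p21 ON libraries, without overlap (log2 fold change -0.15, adjusted p = 0.0955 from limma). SLC16A3, the lactate exporter of glycolytic cells, had 1457, 1290 and 1577 normalized counts in p21 OFF and 1433, 1501 and 1624 in p21 ON libraries, with overlap and a log2 fold change of 0.08.

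ENO2, the enolase isozyme typical of neurons, moved the other way. Its libraries held 1619, 1562 and 1638 normalized counts with p21 OFF and 2212, 2112 and 2082 with p21 ON. The lowest p21 ON value lay well above the highest p21 OFF value. The log2 fold change was 0.41 (SE 0.06, adjusted p = 8.48e-05 from limma), stayed between 0.38 and 0.43 with any library left out, and was called each time. ENO1, the ubiquitous enolase, had 52230, 50660 and 51335 normalized counts in p21 OFF and 43661, 46289 and 47238 in p21 ON libraries. ENO1 had no overlap between groups and a log2 fold change of -0.17, but did not pass the threshold (adjusted p = 0.0619). It passed by edgeR (adjusted p = 0.0254), DESeq2 (0.0223) and limma-voom (0.0219) on the recovered reads.

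ALDOA, the main aldolase, had 23559, 22848 and 21832 normalized counts in p21 OFF and 19850, 20816 and 21543 in p21 ON libraries (log2 fold change -0.13, adjusted p = 0.123 from limma). ALDOC, the brain aldolase, had 1599, 1504 and 1500 normalized counts in p21 OFF and 1338, 1385 and 1401 in p21 ON libraries (log2 fold change -0.16, adjusted p = 0.0707 from limma). PGK1, a kinase that makes ATP in glycolysis, had 7076 to 7751 normalized counts in p21 OFF and 6582 to 6946 in p21 ON libraries (log2 fold change -0.15, adjusted p = 0.0719 from limma). In these 3 genes each p21 ON library lay below each p21 OFF library, but none passed the threshold.

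PFKFB2 and PFKFB4 belong to the bifunctional enzymes that set the level of the sugar phosphate activating phosphofructokinase. PFKFB2 had 195, 224 and 223 normalized counts in p21 OFF and 282, 252 and 261 in p21 ON libraries, with p21 OFF replicate 1 the lowest. The log2 fold change was 0.31 (SE 0.10, adjusted p = 0.0279 from limma), and 0.24 without p21 OFF replicate 1, where it was not called (adjusted p = 0.0763). PFKFB2 was called in 12 of 20 alternatives. It was also lost by DESeq2 (adjusted p = 0.0627), and by limma with the length trend removed (0.0588) and with libraries thinned to the smallest (0.0731). PFKFB4 had 517, 516 and 543 normalized counts in p21 OFF and 650, 580 and 626 in p21 ON libraries. Neither gene showed overlap between the groups. For PFKFB4 the log2 fold change was 0.23 (SE 0.07, adjusted p = 0.0300 from limma), and 0.22 without p21 OFF replicate 1. PFKFB3, the member of this family most linked to proliferation, had 515, 554 and 543 normalized counts in p21 OFF and 525, 613 and 573 in p21 ON libraries, with overlap and a log2 fold change of 0.08. PDK1 and PDK3 are kinases that shut pyruvate dehydrogenase. PDK1 had 421, 357 and 410 normalized counts in p21 OFF and 383, 392 and 355 in p21 ON libraries, a log2 fold change of -0.07. PDK3 had 462, 455 and 470 normalized counts in p21 OFF and 492, 498 and 464 in p21 ON libraries, a log2 fold change of 0.07 that turned negative with the length trend removed. Both overlapped between the groups.

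**Figure D2:**
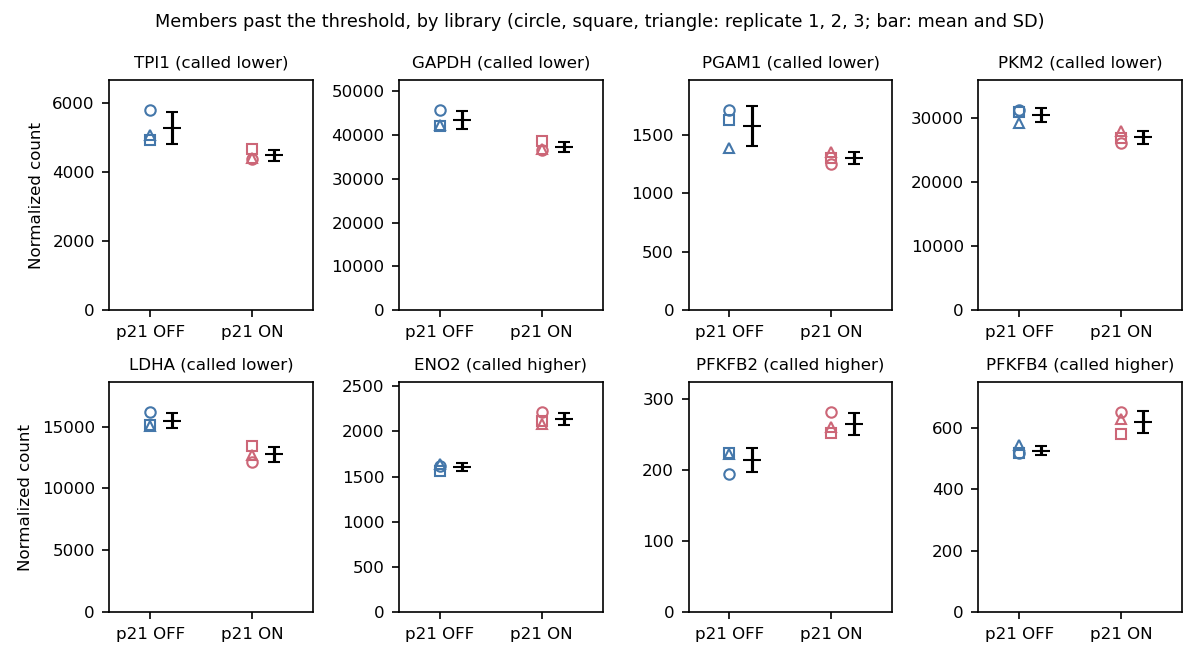
Normalized counts of the 8 called members in each library, with replicates 1, 2 and 3 as circle, square and triangle and the mean and SD of 3 libraries as bars, on axes that start at 0. In each panel the groups are apart, as for ENO2, with 1562 to 1638 against 2082 to 2212.

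Of the 8 calls, those of ENO2 and LDHA were made with every library left out in turn. The others were lost as follows. TPI1 (adjusted p = 0.0951), GAPDH (0.107), PGAM1 (0.0851), PKM2 (0.199), PFKFB2 (0.137) and PFKFB4 (0.153) were not called by limma when p21 ON replicate 1 was left out. Leaving out p21 ON replicate 3 lost TPI1 (0.0828), GAPDH (0.0854), PKM2 (0.0709), PFKFB2 (0.0731) and PFKFB4 (0.0925). Leaving out p21 OFF replicate 2 lost PGAM1 (0.0546), PKM2 (0.118) and PFKFB4 (0.0862), and PKM2 was also lost without p21 ON replicate 2 (0.105). Leaving out p21 ON replicate 1 thus gave 1 member higher and 1 lower. Leaving out p21 ON replicate 3 gave 1 higher and 2 lower. Without p21 OFF replicate 1, 2 members were higher and 6 lower, with ENO1 among the lower. Under scaling by library size alone 3 were higher and 3 lower.

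No member of the HIF branch passed the threshold. HIF1A, the oxygen-labile subunit of HIF, had 16690, 17232 and 16618 normalized counts in p21 OFF and 16680, 17122 and 15875 in p21 ON libraries. These ranges overlapped, and the log2 fold change was -0.03 (95% interval -0.15 to 0.10). Of the 11 tested genes of the HIF group 0 were called, while 2 were lower at an unadjusted p under 0.05 by limma. Calls by edgeR, DESeq2 and limma-voom also numbered 0. BNIP3 was called lower under TMM scaling (adjusted p = 0.0454 from limma), and NDRG1 with the length trend removed (log2 fold change -0.20, adjusted p = 0.0127). The median log2 fold change of the group was -0.12, 9 of the 11 values were negative, and 4, or 36.4%, had p21 ON libraries wholly below the p21 OFF libraries. Over all genes 48.9% were negative and 21.3% wholly below. BNIP3, a mitophagy receptor, had 811, 736 and 721 normalized counts in p21 OFF and 682, 641 and 653 in p21 ON libraries without overlap (log2 fold change -0.20, adjusted p = 0.0558 from limma). BNIP3L, its relative, had 992, 876 and 1056 normalized counts in p21 OFF and 980, 994 and 975 in p21 ON libraries, with overlap and a log2 fold change of 0.02. EGLN1 and EGLN3 encode HIF prolyl hydroxylases. EGLN1 had 324, 296 and 311 normalized counts in p21 OFF and 315, 306 and 292 in p21 ON libraries, with overlap. EGLN3 had 551, 516 and 518 normalized counts in p21 OFF and 456, 504 and 472 in p21 ON libraries, without overlap (log2 fold change -0.15, adjusted p = 0.174 from limma).

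P4HA1 and P4HA2 encode catalytic subunits of the collagen prolyl hydroxylase. P4HA1 had 3101, 2876 and 3025 normalized counts in p21 OFF and 2725, 2785 and 2746 in p21 ON libraries, without overlap (log2 fold change -0.12, adjusted p = 0.127 from limma). P4HA2 had 4472, 4168 and 4495 normalized counts in p21 OFF and 4107, 4470 and 4339 in p21 ON libraries, with overlap and a log2 fold change of -0.02. ADM, the gene of the vasodilator peptide adrenomedullin, had 116 to 126 normalized counts in p21 OFF and 103 to 110 in p21 ON libraries (log2 fold change -0.20, adjusted p = 0.229 from limma). NDRG1, a stress-induced gene, and KDM3A, a histone demethylase, had overlapping groups and log2 fold changes of -0.12 and 0.06. The signs of HIF1A, EGLN1 and P4HA2 turned under scaling by library size alone and with single libraries left out, that of BNIP3L without p21 OFF replicate 2, and that of KDM3A with the length trend removed.

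CA9, a carbonic anhydrase often read as a marker of hypoxia, was weakly expressed. It had 47.7, 19.5 and 28.1 normalized counts in p21 OFF and 24.4, 24.4 and 29.5 in p21 ON libraries. The value of p21 OFF replicate 1 was the highest, and without it the log2 fold change went from -0.19 to 0.14. CA12, at 1.48 to 6.28 normalized counts, and ANKRD37, at 3.66 to 8.15, did not pass the filter and are given as levels only.

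TXNIP and ARRDC4 are arrestin-like proteins that respond to glucose phosphates through MondoA and restrain glucose uptake. TXNIP had 2658, 2322 and 2652 normalized counts in p21 OFF and 2882, 2777 and 2629 in p21 ON libraries, a log2 fold change of 0.12 (95% interval -0.02 to 0.26). ARRDC4 had 236, 182 and 248 normalized counts in p21 OFF and 221, 197 and 253 in p21 ON libraries, a log2 fold change of 0.02 (95% interval -0.24 to 0.27). Both had overlapping groups, and the sign of ARRDC4 changed when p21 OFF replicate 2 was left out, and also when p21 ON replicate 3 was.

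Ratios of related members within a library do not depend on the scaling between libraries. For 15 pairs the log2 ratio was compared between conditions by exact two-sided permutation tests, in which 3 libraries against 3 cannot give a p below 0.1, and no pair passed the threshold after adjustment over the 15. Of these, 4 pairs did not overlap between groups. Of all tested genes taken singly, 19.1% lay wholly above and 21.3% wholly below, and pairs of other genes were not examined. Corrected for canonical transcript length, the level of ENO2 was 2.43% of that of ENO1 in p21 OFF and 3.63% in p21 ON cells. The difference in the log2 ratio was 0.58 (exact permutation test, p = 0.1, adjusted p = 0.333). The log2 ratio differed by 0.14 for HK2 against HK1, by 0.10 for P4HA2 against P4HA1 and by -0.12 for EGLN3 against EGLN1, each with p = 0.1 and adjusted p = 0.333 in the exact permutation test. The pair LDHB and LDHA, with a difference of 0.09, overlapped.

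**Figure D3:**
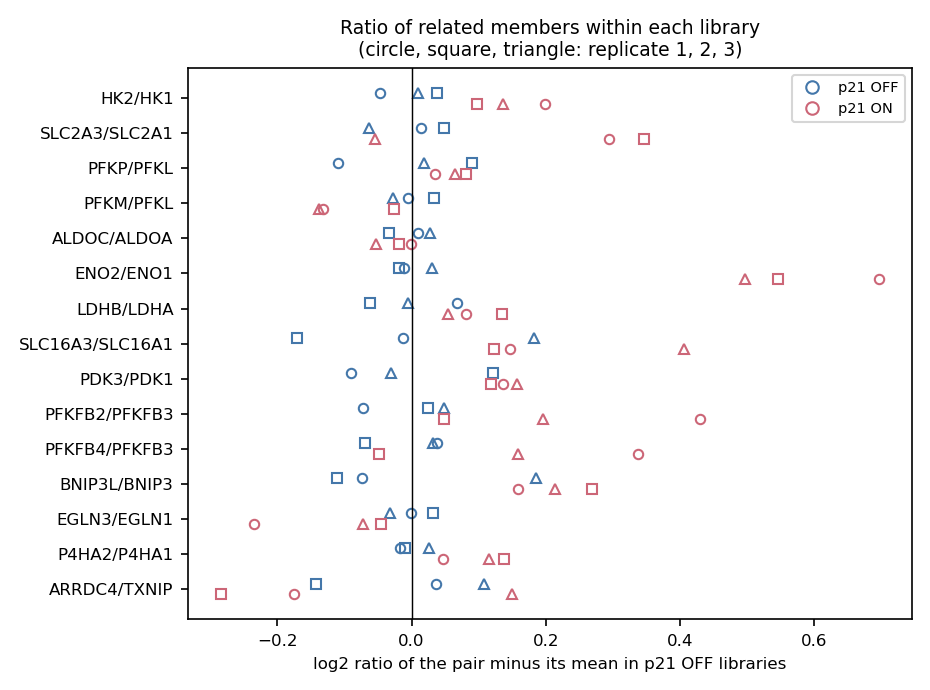
Log2 ratio of 15 pairs of related members in each library, after subtraction of the pair's mean in p21 OFF libraries. The widest shift is that of ENO2 against ENO1, at a mean difference of 0.58, with no overlap.

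Together the 41 members made up 1.598 to 1.684% of all normalized counts with p21 OFF and 1.504 to 1.563% with p21 ON. The 13 glycolytic enzyme rows made up most of this, with 1.14 to 1.21% in p21 OFF and 1.06 to 1.11% in p21 ON libraries. The 5 flux control kinases took 0.0129 to 0.0135% and 0.0144 to 0.0149%. For these sums the ranges of the conditions were apart. They were also apart for lactate and monocarboxylates, at 0.1651 to 0.1837% and 0.1467 to 0.1615%. The same held for the glucose-sensing arrestins, at 0.01533 to 0.01801% and 0.01824 to 0.01984%. The ranges overlapped for the HIF group, at 0.208 to 0.215% and 0.207 to 0.215%, and for glucose entry, at 0.0477 to 0.0524% and 0.0490 to 0.0497%. Such shares are scaled by library size alone, where the median log2 fold change over all genes was 0.0495. How often sums of other genes were apart was not examined.

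Outside the members, 106 further genes of these pathways were examined in 7 lists, of which 80 were tested. By limma 10 were higher and 8 lower, or 12.5% and 10%, close to the 10.5% and 12.7% of all genes. Leaving out p21 ON replicate 1 gave 2 and 2 calls, and leaving out p21 ON replicate 3 gave 5 and 1. Under scaling by library size alone 14 were higher and 4 lower.

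Among 14 tested enzymes of sugar and glycogen metabolism, ENO3, the muscle enolase, was higher, from 28.1 to 38.3 normalized counts in p21 OFF to 41.4 to 69.8 in p21 ON libraries (log2 fold change 0.75, adjusted p = 0.0177 from limma). The call of ENO3 was lost without p21 OFF replicate 3 (adjusted p = 0.0540), and also when p21 ON replicate 1 (0.108) or replicate 3 (0.107) was left out. UGP2, which makes UDP-glucose, and PGM2 were lower, with log2 fold changes of -0.19 and -0.20. UGP2 was called in 12 and PGM2 in 11 of 20 alternatives, and both were lost under scaling by library size alone (adjusted p = 0.0971 and 0.0977), with the replicate block (0.0530 and 0.0635), and without p21 ON replicate 1 (0.128 and 0.190) or replicate 3 (0.146 and 0.132). Among 8 tested transporters 3 were higher and none lower at an adjusted p under 0.05 by limma, with 4 higher and 1 lower at an unadjusted p under 0.05. The 3 higher calls are 37.5% of the list, against 10.5% of all genes, and became 0 without p21 OFF replicate 1, 0 without p21 ON replicate 1, and 1 by DESeq2, without a filter, or without either of the other p21 ON libraries. The higher ones were the monocarboxylate transporter SLC16A7, at 0.36, SLC2A11, at 0.32, and SLC2A10, at 0.52 with overlapping groups, and the call of SLC2A11 was lost with any library left out. PDPR, the regulatory subunit of pyruvate dehydrogenase phosphatase, was the only one of 13 genes of pyruvate entry called, at 0.35. H6PD, the glucose phosphate dehydrogenase of the endoplasmic reticulum, was the only one of 8 tested pentose phosphate genes called, at 0.29. With single libraries left out, PDPR was called in 5 of 6 fits, and SLC16A7 and H6PD in 3 each.

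Of 11 tested HIF regulators 1 was higher and 3 were lower, or 9.09% and 27.3%, against 10.5% and 12.7% of all genes. EPAS1, which encodes the HIF-2α subunit, had 711, 838 and 883 normalized counts in p21 OFF and 1009, 1017 and 959 in p21 ON libraries. All p21 ON values were above, with p21 OFF replicate 1 the lowest, and the log2 fold change was 0.30 (SE 0.08, adjusted p = 0.0107 from limma). TCEB1, TCEB2 and RBX1 encode elongin C, elongin B and a RING protein of the VHL ubiquitin ligase that degrades HIF, and also serve other ligases. TCEB1 had 844, 702 and 642 normalized counts in p21 OFF and 526, 612 and 530 in p21 ON libraries, a log2 fold change of -0.38 (SE 0.09, adjusted p = 0.00709 from limma). The calls were lost without p21 ON replicate 1 for EPAS1 (adjusted p = 0.0554) and without p21 ON replicate 3 for TCEB1 (adjusted p = 0.0533). TCEB2 was lost without p21 ON replicate 1 (0.121), and RBX1 without it (0.0703) or without p21 ON replicate 3 (0.0607). TCEB2 and RBX1 had log2 fold changes of -0.29 and -0.38, and p21 OFF replicate 1 was the highest library for all 3. VHL itself overlapped between the groups, at a log2 fold change of 0.09.

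Of 21 further hypoxia-induced genes tested, 3 were higher and 2 lower, or 14.3% and 9.52%, against 10.5% and 12.7% of all genes. VLDLR, a lipoprotein receptor, and PPFIA4, a liprin, were among the higher ones, with log2 fold changes of 0.45 and 0.29. FAM162A and WSB1 were lower at -0.32 and -0.27. With single libraries left out, VLDLR was called in 6 of 6 fits, FAM162A in 5, PPFIA4 in 4 and WSB1 in 2. VEGFA, the classical angiogenic HIF target, had 2427 to 2665 normalized counts in p21 OFF and 2436 to 2681 in p21 ON libraries, a log2 fold change of 0.02. Among 5 tested genes of the MondoA network only TXN, the thioredoxin that TXNIP binds, was called, at -0.26 with overlapping groups and p21 OFF replicate 1 the highest. TXN was called in 10 of 20 alternatives, with a log2 fold change of -0.12 without p21 OFF replicate 1 (adjusted p = 0.121) and -0.08 with the length trend removed (adjusted p = 0.407).

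**Figure D4:**
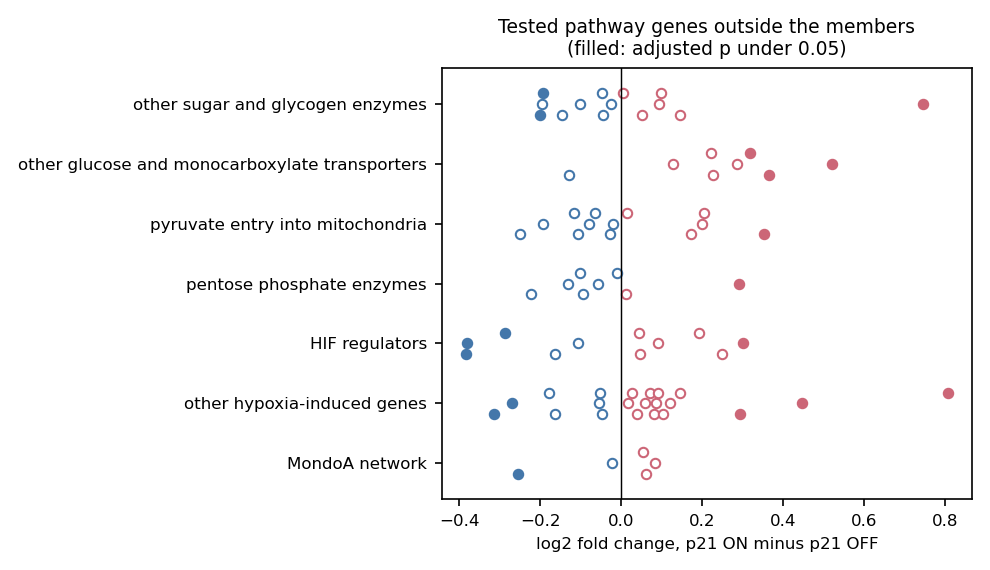
Log2 fold change of the 80 tested pathway genes outside the members, by list, with genes past an adjusted p-value of 0.05 filled and positive values in red and negative values in blue. Most points lie near 0, and among the filled points ENO3 lies at 0.75, VLDLR at 0.45 and TCEB1 at -0.38.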

How the data were processed

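RNA of 6 SaOS-2 libraries was analysed. The authors mapped reads to hg19 with STAR, counted them per gene with HTSeq and divided them by DESeq2 size factors, and the deposited signal table holds these normalized counts. Tool versions, the strand setting of the counting and the handling of reads that fit a pseudogene are not given in the sources used here. Dividing by the step of each library gave whole reads (within 0.01) for 100% of its values.

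Expression was tested with limma 3.58.1 (trend) in R 4.3.3 on log2(normalized count + 1), without covariates, over genes averaging 10 or more, and p-values were adjusted by Benjamini-Hochberg. The recovered reads were also tested by edgeR 4.0.16 (1401 genes higher and 1647 lower), DESeq2 1.42.0 and limma-voom. Other scalings, pseudocounts, filters and thresholds, a replicate block, removal of a length trend, thinning and left-out libraries were further alternatives. The test was tried on simulated data. Lengths are from GENCODE release 44 on GRCh37, with 21297 rows matched, and promoters from RefSeq on GRCh38.p14.

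Members, lists and the 15 pairs were chosen with earlier results of these data known. All members were named, with library values for those past the threshold or in a compared pair, and in each further list the 2 called genes with the lowest adjusted p-values. The values of a further called gene are not reported here. PGM2, SLC2A10, TCEB2, RBX1, PPFIA4, FAM162A, WSB1, VHL and VEGFA and the library values of HIF1A and CA9 were chosen after their values were seen. GAPDH has 65 annotated pseudogenes, BNIP3 44 and PGAM1 13, so their counts are uncertain. ANKRD37 shares 40.4% of its exonic length with UFSP2 and CA9 35.7% with ARHGEF39, both on the opposite strand. On the same strand EGLN1 shares 55.8%, ALDOA 42.8% and LDHB 33.4% with other annotated protein-coding genes that have no row of their own. Pair ratios were tested by exact two-sided permutation over the libraries.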

Additional observations from a re-analysis of the deposited data

How the results depend on the processing

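Of 120 comparisons of a count of calls with an alternative, 93 stayed within 1.5 times and 27 did not. Of 780 comparisons for single members, 727 kept their side of the threshold, 41 lost a call, 12 gained one and none of the called genes changed sign. Scaling by library size alone gave 3 members lower and 4 other pathway genes lower, and over all genes 2034 higher and 1194 lower against 1393 and 1681. Without a filter 3 members were lower. With an adjusted p under 0.01, 1 member was higher and 1 lower, 3 other pathway genes were higher and 2 lower, and over all genes the numbers were 616 and 882. With a log2 fold change of at least 0.5 no member was left (0 and 0), 3 other pathway genes were higher and 0 lower, and over all genes the numbers were 404 and 380. These thresholds admit fewer genes by construction, and for the other changes the cause was not tested.

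With each library left out in turn, 1 to 3 members were higher and 1 to 6 lower, 2 to 11 other pathway genes were higher and 1 to 8 lower, and over all genes 695 to 1486 were higher and 887 to 1660 lower. The lowest counts came without p21 ON replicate 1 or p21 ON replicate 3. With the replicate number as a block, 2 members were higher and 4 lower, with PKM2 (adjusted p = 0.0640) and PFKFB4 (0.0552) not called. Same-numbered libraries did not deviate together (correlations -0.0571, -0.0245 and -0.0480), and no library correlated best with its own number. Such small values cannot show that same-numbered libraries had nothing else in common, and the labels do not state a pairing. With 3 libraries a side, changes as small as those of most members lie near the threshold, and depth limits CA9.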
